A study of Homo sapiens with 6 samples.

Results

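The genes described here encode 10 ligands through which tumour cells hold back or engage immune cells. They are CD274, PDCD1LG2, CD276, VTCN1 and HHLA2 of the B7 family, the nectin family proteins PVR and NECTIN2, the galectin LGALS9, CD47 and CD58. They were chosen by gene name, and all 10 were found among the 20036 genes of the deposited table. The RNA came from PANC-1, a cell line established from a human pancreatic carcinoma, as 2 groups of 3 libraries: cells given a lentivirus that knocks down SHMT2, the mitochondrial serine hydroxymethyltransferase, and cells given a null virus. All libraries came from the same line, and the labels name neither the knockdown sequence nor whether replicates were separate cultures, so the spread behind each p-value is that between libraries and may be technical in part or whole.

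Checkpoint ligands are surface or secreted proteins that bind inhibitory or activating receptors on lymphocytes and macrophages. CD274 and PDCD1LG2, also called PD-L1 and PD-L2, bind the receptor PDCD1 and dampen T cells, and CD274 is a classical interferon-gamma target through IRF1. PVR and NECTIN2 share receptors: both bind inhibitory TIGIT and activating CD226. CD47 binds SIRPA on macrophages and restrains phagocytosis, whereas CD58 binds CD2 and supports T cell adhesion and activation.

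SHMT2 had 139, 56 and 101 counts in knockdown replicates 1, 2 and 3, against 2113, 2284 and 2417 in control replicates 1, 2 and 3, so every label matched its target's level. Library totals lay between 15405884 and 19075734 counts. Knockdown replicate 2 and control replicate 1 stood apart from the other libraries of their groups: a chi-square per gene was 70.7 and 72.3 between knockdown replicate 2 and the other knockdown libraries but 2.40 between those, and 24.6 and 29.4 between control replicate 1 and the other controls but 2.04 between those. Of 7 epithelial markers, 7 passed the filter on low counts, KRT8 averaging 1410 ± 90.7 counts scaled to library size (CPM) in knockdown and 946 ± 101 CPM in control libraries (SD, n = 3 each). Of these markers 3 rose and 2 fell (1 fell without any one of knockdown replicates 1 and 3 and control replicates 1, 2 and 3). Over all 12292 tested genes, 26.7% rose and 25.1% fell by the same call, which is defined below. EPCAM fell, KRT19, which had 3, 4 and 0 control counts, rose to 69.7 ± 12.9 CPM in knockdown libraries, against 0.152 ± 0.137 CPM in control libraries (SD, n = 3 each), and CDH1 averaged 3.97 ± 1.06 and 0.937 ± 0.455 CPM.

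**Figure D1:**
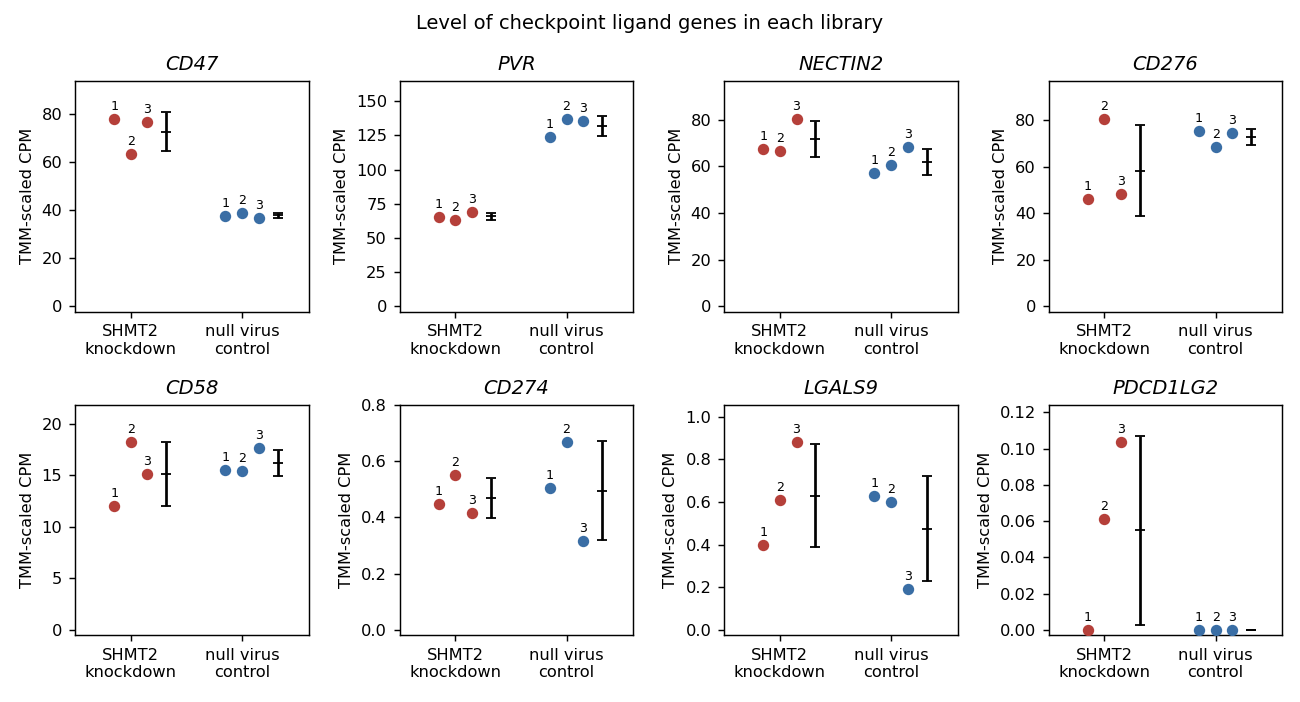
Level of the 8 members with any count, in CPM scaled by TMM factors (vertical axis, a linear scale of its own in each panel), in knockdown (red) and control (blue) libraries, numbered by replicate, with mean and SD in black. The groups do not overlap for CD47 and PVR, and CD276 in knockdown replicate 2 lies above every control.

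CD47 rose and PVR fell in the knockdown libraries, each about 2-fold, and these were the members called at a Benjamini-Hochberg adjusted p below 0.05 in edgeR's quasi-likelihood test. NECTIN2, CD276 and CD58 were expressed in every library without a call. CD274 and LGALS9 stood below 1 CPM in every library, PDCD1LG2 had 3 counts in all and VTCN1 and HHLA2 had 0. The filter on low counts therefore left 5 of the 10 members, of which 1 was called higher and 1 lower, against 51.8% of all 12292 tested genes called in either direction, 26.7% higher and 25.1% lower. The share of members called, 2 of 5, is no higher than that background. The libraries of the groups did not overlap for 2 of the 5, against 61.4% of all tested genes. The median log2 fold change was -0.10 over the 5 tested members and 0.0030 over all tested genes. Without knockdown replicate 2, 1 member was called higher and 2 lower, against 53.9% of genes called, 26.1% higher and 27.8% lower. Without that library and control replicate 1, 2 were called higher and 3 lower, against 73.6% of genes called, 36.9% higher and 36.7% lower.

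CD274, CD47 and PVR are shown by sequence upstream of their RefSeq start sites, CD274 as the gene of PD-L1 and a classical interferon target, and CD47 and PVR as the called members. The sequences are from RefSeq on GRCh38.p14, each on its gene's strand, at chr9:5450292-5450502 (plus), chr3:108091032-108091281 (minus) and chr19:44643660-44643797 (plus). RefSeq's start sites lie downstream of the outermost starts in the deposited table, by 39 bases for CD274, 831 for CD47 and 112 for PVR. The sequences of CD274 and PVR therefore end where the table's gene begins (211 and 138 bases), whereas the 250 bases of CD47 lie within the table's gene. Capitals mark the interferon-stimulated response element core (GAAA, any 2 bases, GAAA, or its reverse complement) and the gamma-activated site TTCNNNGAA in CD274. In CD47 they mark ACGTG, a form of the hypoxia response element core.
CD274: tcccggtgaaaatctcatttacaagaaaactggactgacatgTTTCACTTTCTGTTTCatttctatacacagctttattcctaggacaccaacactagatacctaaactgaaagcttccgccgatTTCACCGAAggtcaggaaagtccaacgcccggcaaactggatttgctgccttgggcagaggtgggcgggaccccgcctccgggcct
CD47: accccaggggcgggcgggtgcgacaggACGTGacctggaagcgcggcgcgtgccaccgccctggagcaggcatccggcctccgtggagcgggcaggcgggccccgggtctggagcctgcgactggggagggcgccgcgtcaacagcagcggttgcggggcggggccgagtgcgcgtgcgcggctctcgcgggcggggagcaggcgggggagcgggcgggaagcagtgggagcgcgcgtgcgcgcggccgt
PVR: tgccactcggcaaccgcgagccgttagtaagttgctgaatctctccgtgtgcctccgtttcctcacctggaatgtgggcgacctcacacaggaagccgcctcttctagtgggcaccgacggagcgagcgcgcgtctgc

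The motifs were searched in the 250 bases before each RefSeq start site. Among the 9 members with such a window, CD274 alone held the response element core (2 matches on the opposite strand that share 4 bases) or TTCNNNGAA (1 match). Over all 35116 windows of this length, searched on both strands, 3.02% held the response element core and 6.57% held TTCNNNGAA. ACGTG, the only form of the hypoxia response element core searched, was held by 18.5% of windows and occurred in CD47 alone. The GC box GGGCGG, held by 42.6%, occurred 6 times in CD47 and was also found in CD274, CD276, NECTIN2 and CD58. The PVR window held none of these 4 motifs. The matches are descriptions of sequence, and binding was not measured.

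PVR, the poliovirus receptor (CD155) that engages TIGIT, CD96 and CD226, lies on the plus strand of chromosome 19 from 44643798 to 44666162 (ENSG00000073008). It had 64.9, 63.4 and 68.6 CPM in knockdown replicates 1, 2 and 3, against 124, 137 and 135 CPM in control replicates 1, 2 and 3. All knockdown libraries lay below all controls, and the spread within each group was small beside the gap. The mean was 65.6 ± 2.70 CPM in knockdown and 132 ± 7.40 CPM in control libraries (SD, n = 3 each), a log2 fold change of -1.01 (SE 0.09, adjusted p = 0.000113, edgeR). Of all tested genes, 5.79% had a log2 fold change at or below that of PVR. CEACAM19, the next gene on the same strand, shares 3.44% of PVR's 3519 exon bases in GENCODE 29. The table's PVR is longer, at 6098 bases, and ends at 44666162 rather than 44663583, on the side of CEACAM19. The overlap in the gene model that was counted is therefore not known and may be larger. How reads in the overlap were assigned is not stated, so the counts of PVR may include some from CEACAM19 or lack some of its own.

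NECTIN2 (CD112), the relative of PVR that binds PVRIG, TIGIT and CD226, lies 180 kb further along chromosome 19 on the same strand, from 44846175 to 44889223 (ENSG00000130202). It had 67.6, 66.7 and 80.6 CPM in knockdown replicates 1, 2 and 3, against 57.0, 60.6 and 68.2 CPM in control replicates 1, 2 and 3. The groups overlapped, since control replicate 3 exceeded knockdown replicates 1 and 2. Its log2 fold change was 0.21 (SE 0.11, 95% interval -0.05 to 0.47, adjusted p = 0.157), an interval that includes 0. With knockdown replicate 2 and control replicate 1 left out together, so that 2 libraries a group remained, the value was 0.20 and was called (adjusted p = 0.00121), in a fit that called 73.6% of all genes.

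The order of these TIGIT ligands in deposited FPKM differed between the groups. The ratio of PVR to NECTIN2 in FPKM, counts scaled to gene length and to the library's total, was 0.589, 0.583 and 0.523 in knockdown replicates 1, 2 and 3, against 1.33, 1.39 and 1.22 in control replicates 1, 2 and 3. By the table's gene lengths, PVR was thus the lower of the pair in every knockdown library and the higher in every control library. That order depends on the length given to PVR, 6098 bases in the table but 3519 exon bases in GENCODE 29. For NECTIN2 these are 3742 and 3747 bases. The relative difference in the ratio between the groups does not depend on length. The mean log2 ratio differed by -1.22 between the groups (exact permutation test, two-sided p = 0.1, the smallest that 3 against 3 libraries allow).

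CD47 (ENSG00000196776), the phagocytosis checkpoint, lies on the minus strand of chromosome 3 from 108043091 to 108091862. It had 78.0, 63.1 and 76.5 CPM in knockdown replicates 1, 2 and 3, against 37.6, 38.8 and 36.8 CPM in control replicates 1, 2 and 3. All knockdown libraries lay above all controls, with knockdown replicate 2 the lowest of its group. The mean was 72.5 ± 8.19 CPM in knockdown and 37.7 ± 1.0 CPM in control libraries (SD, n = 3 each), a log2 fold change of 0.94 (SE 0.11, adjusted p = 0.000368, edgeR). Both called members kept their direction and call in all 15 alternatives, CD47 between 0.88 and 1.04 and PVR between -1.06 and -0.87.

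The genes around CD47 were also higher in the knockdown libraries. Of the 20 tested genes nearest to it on chromosome 3, 10 on each side over 10.6 Mb, 13 were called higher and 2 lower, with a median log2 fold change of 0.84, close to that of CD47 itself. IFT57, the tested gene between CD47 and HHLA2, was at -0.026 without a call. Around PVR, 4 of 20 neighbours were higher and 5 lower (median 0.19), and around NECTIN2 3 were higher and 7 lower (median -0.25). The neighbours of PVR and NECTIN2 are mostly the same genes, and PVR itself is among the 7 lower around NECTIN2. Over all tested genes, 26.7% were called higher and 25.1% lower. The medians were -0.049 around CD276 and -0.0062 around CD58. CD47 is also the longest member (8234 bases in the table), and the 200 tested genes nearest to it in length had a median of 0.11, with 38% called higher. Neither the part of the region nor that of length in the rise of CD47 was tested.

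**Figure D2:**
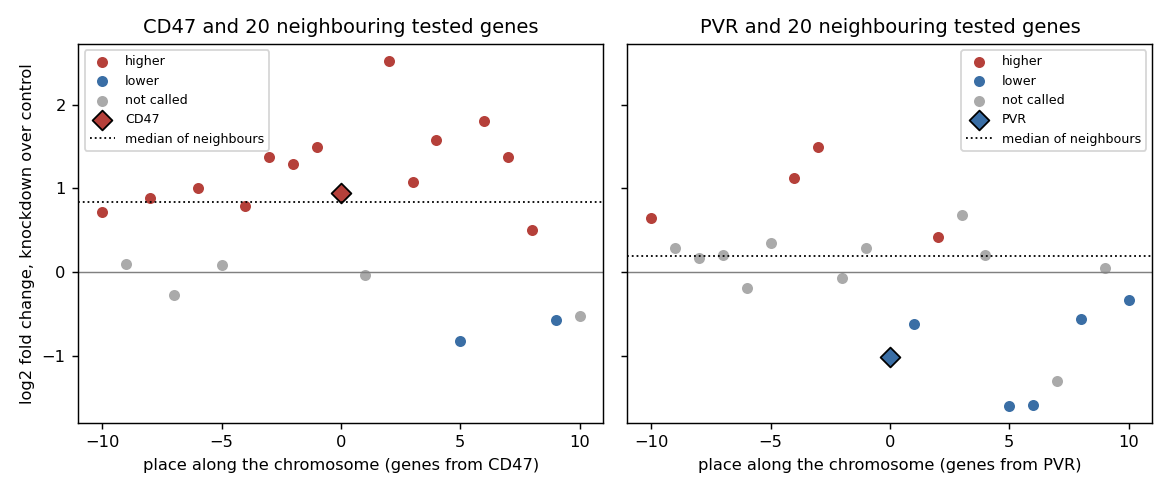
Log2 fold change, knockdown over control (vertical axis), of CD47 and PVR (diamonds) and of the 20 nearest tested genes of each (circles), placed by their order along the chromosome, red where called higher, blue where called lower and grey where not called. Most neighbours of CD47 lie above 0 (dotted median 0.84), while those of PVR lie on both sides (median 0.19).

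CD276 (B7-H3; ENSG00000103855, chromosome 15, plus strand, 73683966 to 73714514), a B7 family protein found on many carcinomas, depended on a single library. It had 46.0, 80.8 and 48.3 CPM in knockdown replicates 1, 2 and 3, against 75.4, 68.7 and 74.4 CPM in control replicates 1, 2 and 3. Knockdown replicates 1 and 3 lay below every control, whereas knockdown replicate 2 was the highest of all 6 libraries. With all libraries the log2 fold change was -0.32 (SE 0.21, 95% interval -0.81 to 0.16, adjusted p = 0.23). Without knockdown replicate 2 it was -0.64 and was called lower (adjusted p = 0.00123, in a fit that called 27.8% of genes lower), and without any one other library it lay between -0.37 and -0.17 with no call.

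CD58 (LFA-3; ENSG00000116815, chromosome 1, minus strand, 116514534 to 116571039) was the lowest of the 5 tested members in CPM. It had 12.0, 18.2 and 15.1 CPM in knockdown replicates 1, 2 and 3, against 15.5, 15.4 and 17.6 CPM in control replicates 1, 2 and 3. The knockdown libraries surrounded the controls. Its log2 fold change was -0.10 (SE 0.16, 95% interval -0.48 to 0.28, adjusted p = 0.627), and it was 0.041 without knockdown replicate 1. With knockdown replicate 2 and control replicate 1 both left out it was -0.28 and was called lower (adjusted p = 0.0211), in the fit that called 73.6% of genes.

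**Figure D3:**
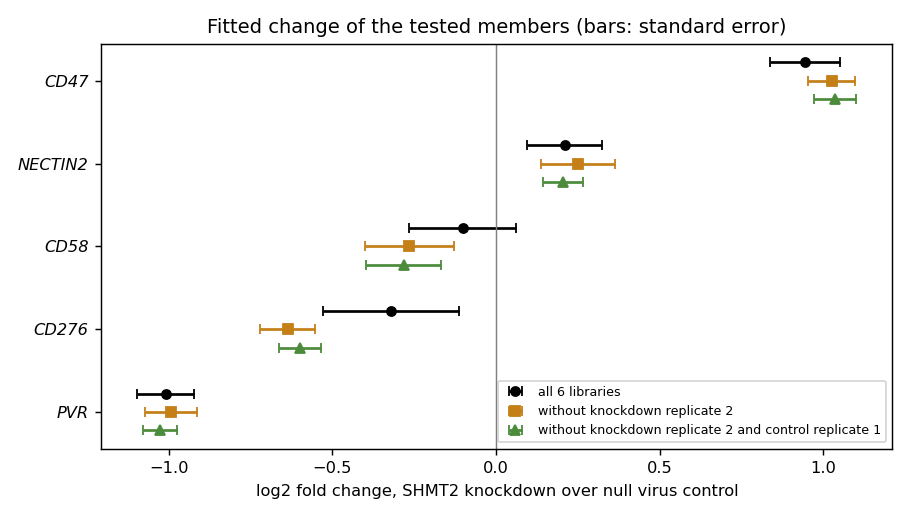
Log2 fold change, knockdown over control (horizontal axis), with its standard error for the 5 tested members in edgeR, with all 6 libraries (circles), without knockdown replicate 2 (squares) and without both that library and control replicate 1 (triangles). PVR and CD47 stay near -1 and 1 in each fit, and CD276 moves from -0.32 with all libraries to -0.64 without knockdown replicate 2.

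CD274, the gene of PD-L1 (ENSG00000120217, chromosome 9, plus strand, 5450503 to 5470566), was barely detected. It had 9, 9 and 8 counts in knockdown replicates 1, 2 and 3, against 8, 10 and 5 counts in control replicates 1, 2 and 3. That is 0.470 ± 0.0706 CPM in knockdown and 0.496 ± 0.176 CPM in control libraries (SD, n = 3 each), and the groups overlapped. The ratio of the summed counts, scaled to library size, was 0.945 with a 95% exact binomial interval from 0.518 to 1.73, which covers counting error only. A change within that interval was not detectable at this depth. PDCD1LG2 (ENSG00000197646), which lies 40.0 kb downstream on the same strand with no gene of the table between them, had 0, 1 and 2 counts in knockdown replicates 1, 2 and 3 and 0 in every control.

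LGALS9 (ENSG00000168961, chromosome 17, plus strand, 27629798 to 27649560), the galectin that binds the receptor HAVCR2 (TIM-3), had 8, 10 and 17 counts in knockdown replicates 1, 2 and 3, against 10, 9 and 3 counts in control replicates 1, 2 and 3. The groups overlapped, and the scaled ratio of summed counts was 1.33 (95% interval 0.759 to 2.38). Its close copies LGALS9B and LGALS9C had 1 and 3 counts in the knockdown libraries and 0 in the controls, so reads may have been split among them. VTCN1 (B7-H4) and HHLA2 (B7-H7), which also restrain T cells, had 0 counts in all 6 libraries, which allows up to 0.0537 CPM over the knockdown libraries and 0.0643 CPM over the controls at 3 counts a group.

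All of the 10 genes but CD276 and LGALS9 fall into 4 pairs that lie near each other on a chromosome, a feature the choice by name did not use. CD274 and PDCD1LG2 are adjacent on chromosome 9, PVR and NECTIN2 are 180 kb apart on chromosome 19, CD47 and HHLA2 are 205 kb apart on chromosome 3, and CD58 and VTCN1 are 573 kb apart on chromosome 1. Within the chromosome 3 and chromosome 1 pairs, CD47 and CD58 were expressed in every library while HHLA2 and VTCN1 had no count. PVR and NECTIN2 were both expressed, and of the pair only PVR was called. CEACAM19, which overlaps the end of PVR, had a log2 fold change of -0.61 and was also called lower. Of the 4 genes in the gap between them 2 were tested, at log2 fold changes of 0.42 (BCL3, called higher) and 0.68 (BCAM, not called).

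Per gene length as given in the table, the order of the members differed between the groups. The place and share of PVR rest on its table length of 6098 bases, against 3519 exon bases in GENCODE 29. In the knockdown libraries NECTIN2 led with 17.4 to 22.7 FPKM, and the ranges of PVR (10.2 to 11.9), CD276 (8.86 to 14.4), CD47 (7.50 to 9.996) and CD58 (7.11 to 9.97) each overlapped the next. In the control libraries PVR led with 19.8 to 21.9 FPKM, followed without overlap by NECTIN2 (14.9 to 17.6), CD276 (12.2 to 13.4), CD58 (8.37 to 9.56) and CD47 (4.32 to 4.58). The lower 5 members reached at most 0.162 FPKM in any library. The FPKM of the 10 members summed to 59.7 ± 3.24 in knockdown and 63.5 ± 2.43 in control libraries (SD, n = 3 each), and the group ranges overlapped. FPKM takes no TMM factors. In TMM-scaled CPM, which takes no gene length, the members summed to 269 to 293 in knockdown and 310 to 333 in control libraries, without overlap. All genes of the table summed to 947323 to 1022540 in knockdown and 1022731 to 1035106 in control libraries on that scale, also without overlap. The scaling thus has a part in the difference between the members' sums. CD47 made up 15.3% of the summed FPKM in knockdown and 7.02% in control libraries on average, and PVR 18.6% and 33.2%.

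**Figure D4:**
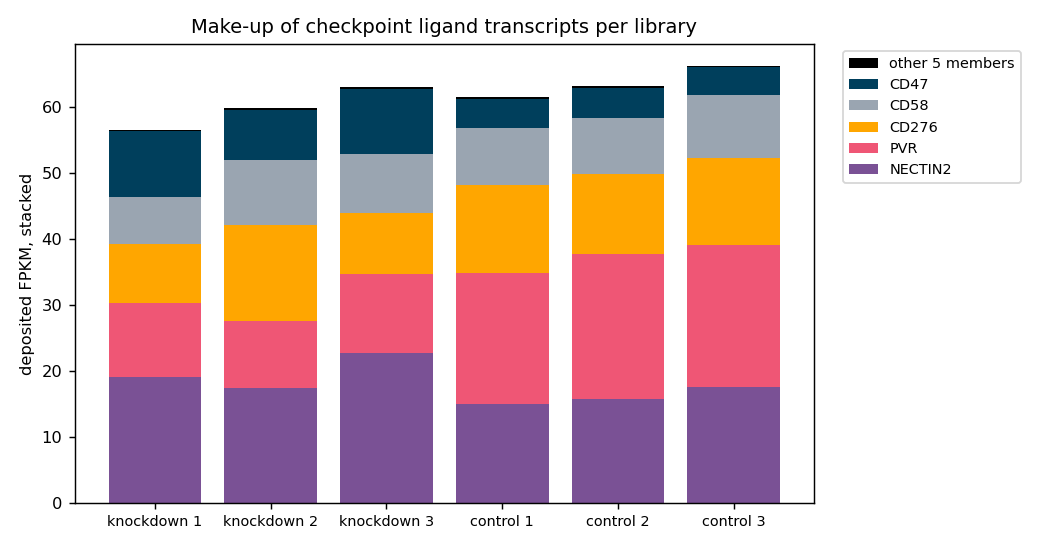
Deposited FPKM of the members stacked per library (vertical axis), knockdown libraries on the left. By the table's gene lengths, PVR is the widest segment in each control and NECTIN2 in each knockdown library. The CD47 segment is wider in the knockdown libraries (7.50 to 9.996 FPKM) than in the controls (4.32 to 4.58 FPKM).

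Among 18 tested interferon receptor, JAK-STAT and IRF genes, 5 rose and 1 fell (median 0.10). That is a smaller share called than over all tested genes, of which 26.7% were called higher and 25.1% lower, the background for each list count. IRF1, an interferon-induced transcription factor that acts on the CD274 promoter, rose to 12.7 ± 1.43 CPM in knockdown libraries, against 6.26 ± 0.997 CPM in control libraries (SD, n = 3 each), a log2 fold change of 1.02 (SE 0.16). The interferon receptor chain IFNAR2 rose by 1.01 on the same scale, and SOCS3, a feedback inhibitor of cytokine receptors, changed by -0.96 among neighbours with a median of -0.76. The count of higher members was 3 without knockdown replicate 1 or 3 or control replicate 3.

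Genes that handle the CD274 protein rose in 1 and fell in 3 cases of 13 (median -0.086), also a smaller share than the 51.8% of all tested genes called. ZDHHC9, which palmitoylates CD274, rose to 108 ± 18.6 CPM in knockdown libraries, against 44.6 ± 1.88 CPM in control libraries (SD, n = 3 each), and its 20 neighbours on chromosome X had a median of 1.40 with 18 called higher. USP22, a deubiquitinase of CD274, changed by -0.47 (SE 0.08) and the palmitoyltransferase ZDHHC3 by -0.44 (SE 0.09). The 20 neighbours of USP22 had a median of -0.30 with 9 called lower and 3 higher. Those of ZDHHC3 had a median of -0.33 with 10 called lower and 0 higher. HIP1R, which targets CD274 to lysosomes, changed by -0.40 and lost its call in 6 of 15 alternatives, among them without knockdown replicate 3 (adjusted p = 0.0571) and without control replicates 2 (0.0834) or 3 (0.0635). Without knockdown replicate 2, 2 of these genes were called higher.

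The receptor for CD47 was itself measured in these cells. SIRPA, through which CD47 restrains macrophages, fell to 2.72 ± 0.312 CPM in knockdown libraries, against 18.1 ± 1.80 CPM in control libraries (SD, n = 3 each). Its log2 fold change was -2.73 (SE 0.15). LRP1, the receptor of calreticulin, an opposing phagocytic signal, rose by 0.50 (SE 0.08). In all, 1 of 6 tested CD47 partners rose and 1 fell (median 0.099).

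The other nectins and nectin-like proteins fell in 3 and rose in 1 of 5 tested members (median -0.75). NECTIN3, a binding partner of PVR and NECTIN2 between cells, fell to 10.4 ± 0.806 CPM in knockdown libraries, against 18.3 ± 1.70 CPM in control libraries (SD, n = 3 each). It lies 5 tested genes from CD47 and fell where its 20 neighbours had a median of 0.82, with 16 of them higher. NECTIN1 changed by -0.75 (SE 0.13) and CADM4 by -1.09 (SE 0.16), whereas the adhesion molecule CADM1 rose by 1.45 (SE 0.17).

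Of 10 tested members of the B7 and butyrophilin family outside the 10 ligands, 5 rose and 1 fell (median 0.41). NCR3LG1 (B7-H6), which activates natural killer cells through NCR3, fell to 18.1 ± 2.26 CPM in knockdown libraries, against 40.9 ± 4.43 CPM in control libraries (SD, n = 3 each), a log2 fold change of -1.18 (SE 0.13), among neighbours with a median of 0.74. BTN3A1 and BTN3A2, butyrophilins involved in gamma-delta T cell recognition, rose by 1.19 (SE 0.16) and 0.78 (SE 0.15), and their close similarity leaves the split of reads between them uncertain. BTNL9 rose by 0.71 (SE 0.11). The count of higher members was 3 without knockdown replicate 1 or 3 or without control replicate 1 or 3.

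Ligands of the activating receptor NKG2D, to which natural killer cells respond, fell in 4 and rose in 1 of 6 tested members (median -0.58). ULBP3 changed by -1.11 (SE 0.12), ULBP2 by -0.92 (SE 0.21) and MICA by -0.83 (SE 0.14). ULBP1 rose to 18.1 ± 5.06 CPM in knockdown libraries, against 2.93 ± 0.250 CPM in control libraries (SD, n = 3 each), a log2 fold change of 2.62 (SE 0.23).

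Of 14 tested genes for further ligands of lymphocyte and myeloid receptors, 6 rose and 2 fell (median 0.34). CD24, which restrains macrophages through SIGLEC10, fell to 15.4 ± 1.52 CPM in knockdown libraries, against 138 ± 4.23 CPM in control libraries (SD, n = 3 each), a log2 fold change of -3.16 (SE 0.10) and opposite in direction to CD47. CD24 has near-identical pseudogene copies, so its counts are uncertain. CLEC2D, the ligand of the inhibitory receptor KLRB1 on natural killer cells, rose to 4.22 ± 0.839 CPM, against 0.454 ± 0.188 CPM in control libraries, or by 3.21 (SE 0.31) on the log2 scale. The adhesion ligand ICAM1 rose by 1.42 (SE 0.12) and the galectin LGALS8 by 1.95 (SE 0.16), the last among neighbours with a median of 0.60. Of 3 tested adenosine and tryptophan genes, the adenosine receptor ADORA2B changed by -0.75 (SE 0.14) and was called, while NT5E (CD73), which makes adenosine, averaged 531 ± 72.2 CPM in knockdown and 568 ± 92.4 CPM in control libraries.

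**Figure D5:**
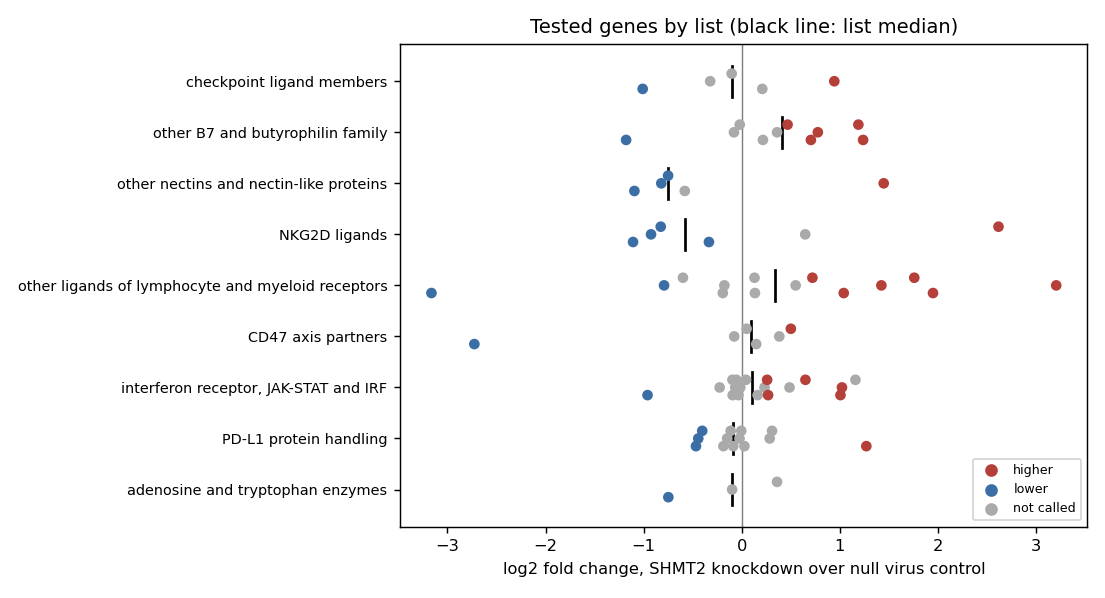
Log2 fold change, knockdown over control (horizontal axis), of each tested gene, in rows by list, red where called higher, blue where called lower and grey where not called, with list medians in black. The checkpoint ligands lie between -1.01 and 0.94 around a median of -0.10, the nectins have a median of -0.75 and the B7 and butyrophilin genes of 0.41.

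Genes of the receptors that these ligands meet on immune cells, and immune cell markers, had little signal in this cell line. Of 15 checkpoint receptors, 12 did not pass the filter on low counts, TIGIT, CD96, CD2, CD28, CTLA4 and KIR3DL3 had 0 counts in every library, and PDCD1 had 0 counts in the knockdown and 10 in the control libraries. The 3 tested receptors gave 0 calls in edgeR, 0 at an unadjusted p below 0.05 and 0 in DESeq2. CD226 averaged 1.18 ± 0.246 CPM in knockdown and 1.71 ± 0.633 CPM in control libraries and CD160 1.33 ± 0.333 and 1.09 ± 0.129 CPM (SD, n = 3 each). The 14 immune markers summed to 4.66 to 5.68 CPM in knockdown and 4.34 to 5.63 CPM in control libraries, with CD3G and MS4A1 among those at 0 and PTPRC at 4 counts in knockdown and 1 in control libraries. Among them CD14 (log2 fold change 0.99) was called higher and LAPTM5 (-1.91) lower, with 0 called higher without knockdown replicate 1 or control replicate 1 or 2, and 0 called lower without knockdown replicate 1 or control replicate 2 or 3. COL1A1 averaged 44.3 ± 2.77 CPM in knockdown and 83.8 ± 7.16 CPM in control libraries, while COL1A2 and DCN, which fibroblasts also express, had 0 counts.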

How the data were processed

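The authors deposited whole-number read counts and FPKM per gene, per the file headers. Per the labels' protocols, TRIzol was used for RNA isolation and a NEBNext Ultra II kit for the libraries. No aligner, counter, build, annotation or strand setting is named: not given in the sources used here. Deposited FPKM values equal counts divided by table length and column total, to within rounding. For 9 of 10 members a start or end in the table equals that in GENCODE 29 on GRCh38, and coordinates are given as in the table. A match at either end does not make the gene models equal. PVR has the same start but ends at 44666162 in the table and at 44663583 in GENCODE 29.

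Counts were filtered with filterByExpr (12292 genes left), scaled by TMM factors and fitted with edgeR 4.0.16 (R 4.3.3) without covariates. Levels are TMM-scaled CPM. Each SE is the absolute log2 fold change divided by the square root of F. Members and gene lists were chosen with earlier results of these data known. Named genes are the members, SHMT2 and up to 4 called genes per list by adjusted p, or the 2 of highest mean where fewer than 2 were called. BCL3, BCAM, CEACAM19 and IFT57, and genes named for their counts, were chosen after their values were seen. Some genes that the rule names are not reported here. Alternatives were other scalings, no filter, DESeq2 1.42.0, limma 3.58.1 (voom, and log2(FPKM + 1)), a replicate block and left-out libraries. Bulk RNA cannot separate fewer expressing cells from less RNA per cell.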

Additional observations from a re-analysis of the deposited data

How the results depend on the processing

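PVR and CD47 kept direction and call in 15 of 15 alternatives. CD58 changed sign without knockdown replicate 1 (0.041) and ranged from -0.28 to 0.041 with libraries left out. NT5E changed sign without control replicate 1 and ranged from -0.22 to 0.039. Neither was called where its sign changed. Without knockdown replicate 2 and control replicate 1 together, 2 members were called higher and 3 lower. The counts were 8 higher and 3 lower for interferon signalling, 4 higher for CD274 protein handling and 3 higher and 2 lower for CD47 partners. They were 1 higher for adenosine and tryptophan genes and 2 lower for immune markers. That fit called 73.6% of all its tested genes, 36.9% higher and 36.7% lower, which is the background for these counts. The cause of the larger counts was not tested. Leaving out single libraries gave 1 to 2 lower members, 3 to 5 higher B7 and butyrophilin genes, 3 to 5 higher and 1 to 2 lower interferon signalling genes, 1 to 2 higher CD274 handling genes, 1 to 2 lower epithelial markers, and 0 to 1 higher and 0 to 1 lower immune markers. CD47 partners called higher numbered 2 with DESeq2, RLE factors, library totals alone, limma on log2(FPKM + 1) and limma-voom. NKG2D ligands called higher numbered 2 with library totals alone and limma on log2(FPKM + 1). Interferon signalling genes called higher numbered 3 with no filter on low counts and with upper-quartile factors (2 lower), and immune markers called higher numbered 2 with no filter. With the replicate number as a block, counts were 3 higher B7 and butyrophilin genes, 3 higher interferon signalling genes, 1 lower epithelial marker and 0 lower immune markers. Deviations of same-numbered libraries from their group mean correlated at -0.36, -0.34 and 0.37. Deviations within a group sum to 0, so these correlations depend on each other and on the libraries that stood apart. They cannot decide whether the numbers pair the samples. The highest correlation across the groups, 0.49, was between knockdown replicate 2 and control replicate 1, the libraries that stood apart. Knockdown replicates 1 and 3 correlated with control replicate 1 at -0.36 and -0.45. What these 2 libraries share was not tested. At an adjusted p below 0.01 the member counts stayed at 1 and 1. Members below 1 CPM were limited by depth: LGALS9 passed the filter in 6 settings, at 0.025 to 0.70 with adjusted p from 0.274 to 0.971, and CD274 only without the filter (-0.08, adjusted p = 0.904).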
